A study of Bos taurus with 32 samples.

Results

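The intercaruncular endometrium (ICAR) of the uterine horn ipsilateral to the corpus luteum was compared between cows that were repeat breeders (RB) and cows that were not. It was chosen by the titles of the arrays, which gave 8 of the 32 arrays of the series, 4 from RB cows and 4 from normally fertile cows, called non-RB. The remaining 24 arrays held ICAR of the contralateral horn and caruncular endometrium (CAR) of both horns, 8 arrays each. All cows were non-lactating Japanese Black and were sampled on Day 15 of the estrous cycle. RB cows showed estrus but had failed to conceive at repeated inseminations, and their cycles were not always normal. Non-RB cows had conceived, the pregnancy had been ended with an injection of prostaglandin F2α, and they had cycled again before sampling, so that the groups also differed in this treatment. Each array was made from total RNA of a piece of whole tissue, in which fewer cells of a type and less RNA per cell cannot be told apart.

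The bovine endometrium is divided into caruncles, raised areas without glands at which the placenta attaches, and the intercaruncular areas between them, which hold the uterine glands. Glandular epithelium secretes the proteins, sugars and lipids (histotroph or uterine milk) on which the conceptus lives before it attaches, and its development depends on the transcription factor FOXA2. Around Day 15 the luminal and glandular epithelium also sets the release of prostaglandin F2α, which ends the cycle unless a conceptus signals its presence. In repeat breeding, conception fails time after time without an evident clinical cause.

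On these arrays the glandular factor FOXA2, the secreted protein BPIFB1, ciliary genes and the prostaglandin-degrading enzyme HPGD had higher means in RB cows, and collagens and the adhesive glycoprotein THBS4 had lower means. For FOXA2, the ciliary genes and the collagens the difference lay largely in non-RB replicates 2 and 3. Their arrays were on the caruncular side of a score of the difference between the areas. Probes of FOXA2 and of ciliary genes are part of that score. THBS4, the spindle protein FAM83D and the claudin CLDN1 had differences of similar size without those replicates. For FAM83D the paper reports that quantitative PCR in this tissue did not match its array result. With 4 cows a group, no gene passed adjustment for all probes tested.

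Values are log2 intensities, each taken relative to the array's own 75th percentile, which ranged from 2291 to 4688 intensity units, and between 78.2% and 84.9% of the 15208 probes of an array were well above background. Any 2 of the 8 arrays correlated at 0.960 to 0.991 over all probes of the array, with flagged spots left out. RB replicates 2 and 3 shared slide 2, RB replicate 4 and non-RB replicate 3 shared slide 6, and RB replicate 1 and non-RB replicate 2 shared slide 8. Of these 8 arrays, non-RB replicates 1 and 4 were the only ones on slides 3 and 7. Scan session 2, a session being the arrays scanned in the same month, held RB replicates 2 and 3 with non-RB replicate 1. Session 3 held RB replicate 4 with non-RB replicates 3 and 4, and session 4 held the pair of slide 8. The labels do not say that arrays with the same number came from the same cow across horns and areas, which was assumed where horns or areas were compared.

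The arrays were set against the difference between the areas before the groups were compared. A score was computed as the mean level of the 50 probes highest in ICAR minus that of the 50 probes highest in CAR, both chosen in the contralateral horn of 7 cows. RB replicate 3 was left out of that choice because its contralateral arrays went against their labels, with scores of -3.72 for ICAR and 2.24 for CAR. In ipsilateral ICAR the RB arrays had scores of 3.18, 2.48, 2.01 and 2.40 for replicates 1 to 4, and the non-RB arrays had 3.13, -1.05, -2.37 and 1.92. All 4 RB arrays and non-RB replicates 1 and 4 thus scored on the ICAR side, and non-RB replicates 2 and 3 scored on the CAR side. RB cows had a mean score of 2.52 ± 0.49 (SD, n = 4), against 0.41 ± 2.55 (SD, n = 4) for non-RB cows, and the groups overlapped. Ipsilateral CAR arrays lay between -3.22 and 0.96 in RB and between -3.99 and -0.02 in non-RB cows. Each result is therefore given for the 8 arrays and, where it matters, without non-RB replicates 2 and 3, an alternative chosen after seeing the data that leaves 4 against 2 arrays. Whether these pieces differed in their makeup of glands, epithelium and stroma was not tested.

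**Figure D1:**
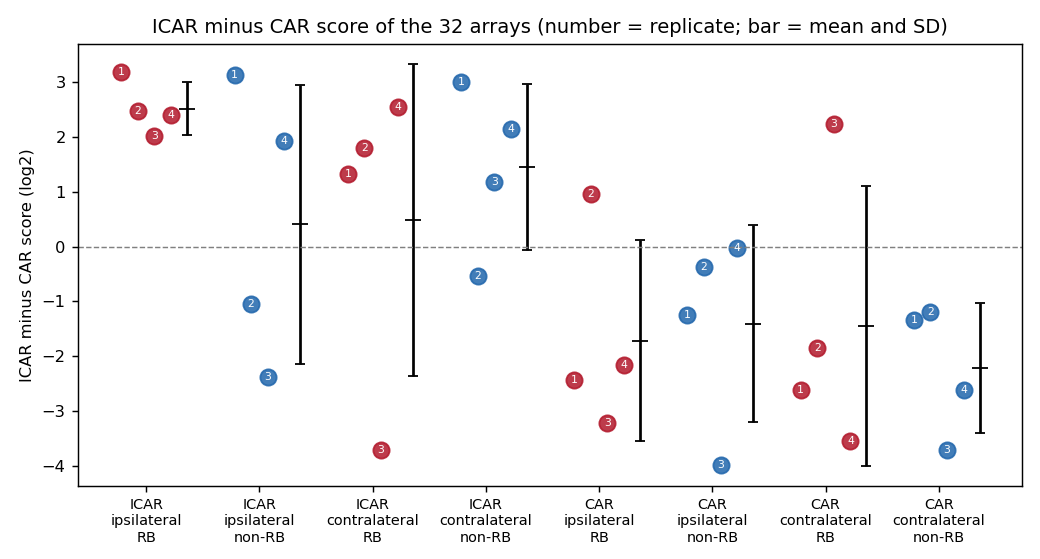
Score of ICAR minus CAR in log2 units (vertical axis) for every array of the series, by compartment and group, with each point an array and the number its replicate. In ipsilateral ICAR the 4 RB arrays lie between 2.01 and 3.18, and non-RB replicates 2 and 3 lie at -1.05 and -2.37.

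Of 12889 probes tested with limma, 0 (0.0%) had a p-value under 0.05 after Benjamini-Hochberg adjustment, and the smallest adjusted p was 0.863. Without adjustment 476 probes (3.69%) had a p under 0.05, of which 289 (2.24%) were higher and 187 (1.45%) were lower in RB cows, and the methods' t-test gave 197 and 257. All arrays of one group lay above all arrays of the other for 285 probes (2.21%), 116 (0.9%) of them higher and 169 (1.31%) lower in RB cows. Of the 169, 58 were among the 102 probes tested for GAPDH, a glycolytic enzyme, whose median difference was -0.375. Of the 187, 33 were GAPDH probes, so that this count and its share of 1.45% hold 1 gene many times. With probes of the same sequence averaged, 287 were higher and 153 lower. When the array medians instead of the 75th percentiles were set equal, 226 probes were higher and 258 lower, so that 46.7% of them were higher against 60.7%. The median difference over all probes was -0.03 and the quartiles were -0.27 and 0.22, with a median SE of 0.30. In what follows "higher" and "lower" describe the means of these arrays, and none of the genes named passed adjustment. With 4 against 4 arrays the smallest two-sided p of an exact permutation test is 0.0286, which is that of each gene whose groups did not overlap. The p-values measure the spread between these arrays.

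The probes higher in RB cows were mostly probes that were higher in ICAR than in CAR in the other horn. Among the 289 probes, 252 (87.2%) had the higher level in contralateral ICAR, against 5806 of all 12889 (45.0%), and 89 (30.8%) exceeded CAR by more than 1 log2 unit, against 342 (2.65%). Among the 187 probes lower in RB cows 58 (31.0%) were higher in contralateral ICAR, and 19 (10.2%) were lower by more than 1, against 324 (2.51%) of all probes. Of the 50 ICAR probes of the score, 50 were higher in RB cows with a median difference of 1.28, and of the 50 CAR probes 2 were higher with a median of -0.82, beside 6037 of all 12889 probes (46.8%) above 0. The ICAR probes included SPAG6, DNAH11, DAW1 and CCDC65 of motile cilia, and the CAR probes included the matrix glycoprotein TNC, neuropeptide Y (NPY) and the Wnt inhibitor SFRP1. When non-RB replicates 2 and 3 were left out, an unadjusted p under 0.05 was found for 174 probes with the higher and 117 with the lower mean in RB cows. They shared 41 (14.2%) of the 289 and 24 (12.8%) of the 187, or 23.6% and 20.5% of the smaller sets. Across the 476 probes, counted so that the RB direction is positive, the median deviation was 0.24 to 0.62 in the RB arrays and 0.01, -0.70, -0.64 and -0.26 in non-RB replicates 1 to 4. These probes were chosen by their difference on the same arrays, so the signs of the group means follow from the choice.

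**Figure D2:**
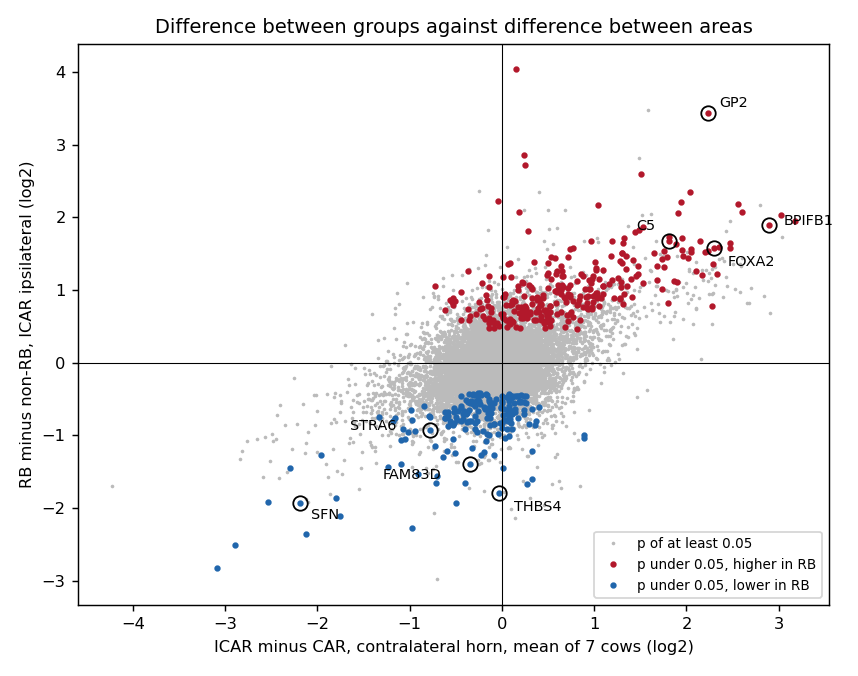
Difference between RB and non-RB cows in ipsilateral ICAR (vertical axis, log2) against the difference between ICAR and CAR in the contralateral horn (horizontal axis, log2, mean of 7 cows), with each point a probe and coloured points the 289 higher and 187 lower at an unadjusted limma p under 0.05. Most of the red points lie to the right of 0, with BPIFB1 and FOXA2 among them, and THBS4 lies near 0 on the horizontal axis.

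Genes of the glandular epithelium were among those with higher means in RB cows. BPIFB1, a secreted mucosal protein of the BPI fold family, measured 0.91, 0.71, 1.64 and 0.84 in RB and 0.36, -1.69, -2.00 and -0.14 in non-RB cows. The RB arrays lay above all non-RB arrays, of which replicates 2 and 3 were far below the others. The difference was 1.89 (SE 0.52; exact permutation p = 0.0286, limma adjusted p = 0.863), and 0.92 without those replicates.

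FOXA2, the forkhead factor required for uterine gland formation, measured 1.67, 1.96, 2.12 and 1.84 in RB and 1.43, -0.81, -0.51 and 1.18 in non-RB cows. The groups did not overlap, and again non-RB replicates 2 and 3 stood more than 1 log2 unit below the other arrays. The difference of 1.57 (SE 0.50; exact permutation p = 0.0286, limma adjusted p = 0.863) was 0.59 without them. A second FOXA2 probe overlapped between the groups, with a difference of 1.29 (exact permutation p = 0.171) that was 0.21 without the pair.

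SPDEF, an ETS factor of secretory epithelium, measured 1.38, 0.69, 0.99 and 1.27 in RB and 0.73, -1.73, -1.81 and 0.54 in non-RB cows. RB replicate 2 lay just under non-RB replicate 1, and the difference of 1.65 (SE 0.60; exact permutation p = 0.0571, limma adjusted p = 0.863) was 0.44 without the pair. Indian hedgehog (IHH), the epithelial signal that progesterone induces toward the stroma, measured between 1.99 and 2.30 in RB and 1.98, -0.23, -0.37 and 1.86 in non-RB cows. The lowest RB array lay just above non-RB replicate 1, and the difference of 1.36 (SE 0.54; exact permutation p = 0.0286, limma adjusted p = 0.863) was 0.25 without the pair. Estrogen receptor beta (ESR2) measured -2.10, -2.19, -1.88 and -2.20 in RB and -2.21, -3.81, -5.64 and -2.81 in non-RB cows. The RB arrays lay together and above every non-RB array, of which replicate 1 was only just below them, and the difference of 1.52 (SE 0.63; exact permutation p = 0.0286, limma adjusted p = 0.863) was 0.41 without the pair. All of these genes were higher in ICAR than in CAR in the contralateral horn, by 2.20 to 2.89. Probes of BPIFB1, FOXA2, SPDEF, IHH and ESR2 are among the 50 ICAR probes of the score. Their low levels in non-RB replicates 2 and 3 are therefore no separate observation from the scores of those arrays. Probes of AKR1C4, FMO2, SPAG6 and CCNB1, given below, are also among the 50.

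Over the list of glandular epithelium markers 7 of 10 tested genes were higher and 3 lower, with a median difference of 0.72 against -0.03 over all probes. BPIFB1, SPDEF and the claudin CLDN10 (difference 1.72, exact permutation p = 0.0571) were the members with an unadjusted p under 0.05, or 3 of 10 beside 2.24% of all probes. The mean level of the list was -0.85, -1.47, -1.23 and -1.50 in RB and -0.83, -2.91, -2.22 and -1.84 in non-RB cows, and its median difference was 0.10 without non-RB replicates 2 and 3. Among ciliated cell markers 6 of 7 were higher with a median of 0.82, which was -0.07 without the pair. SPAG6, of the central apparatus of cilia, measured -0.71, -0.46, -0.97 and -0.68 in RB and -0.93, -3.00, -3.69 and -1.40 in non-RB cows. The axonemal gene TEKT1 had a difference of 1.63 (exact permutation p = 0.114) and cleared the background on 3 of 4 arrays of non-RB cows. Luminal and general epithelium markers had a median of 0.21, with 8 of 12 higher, and the median turned to -0.33 without the pair.

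**Figure D3:**
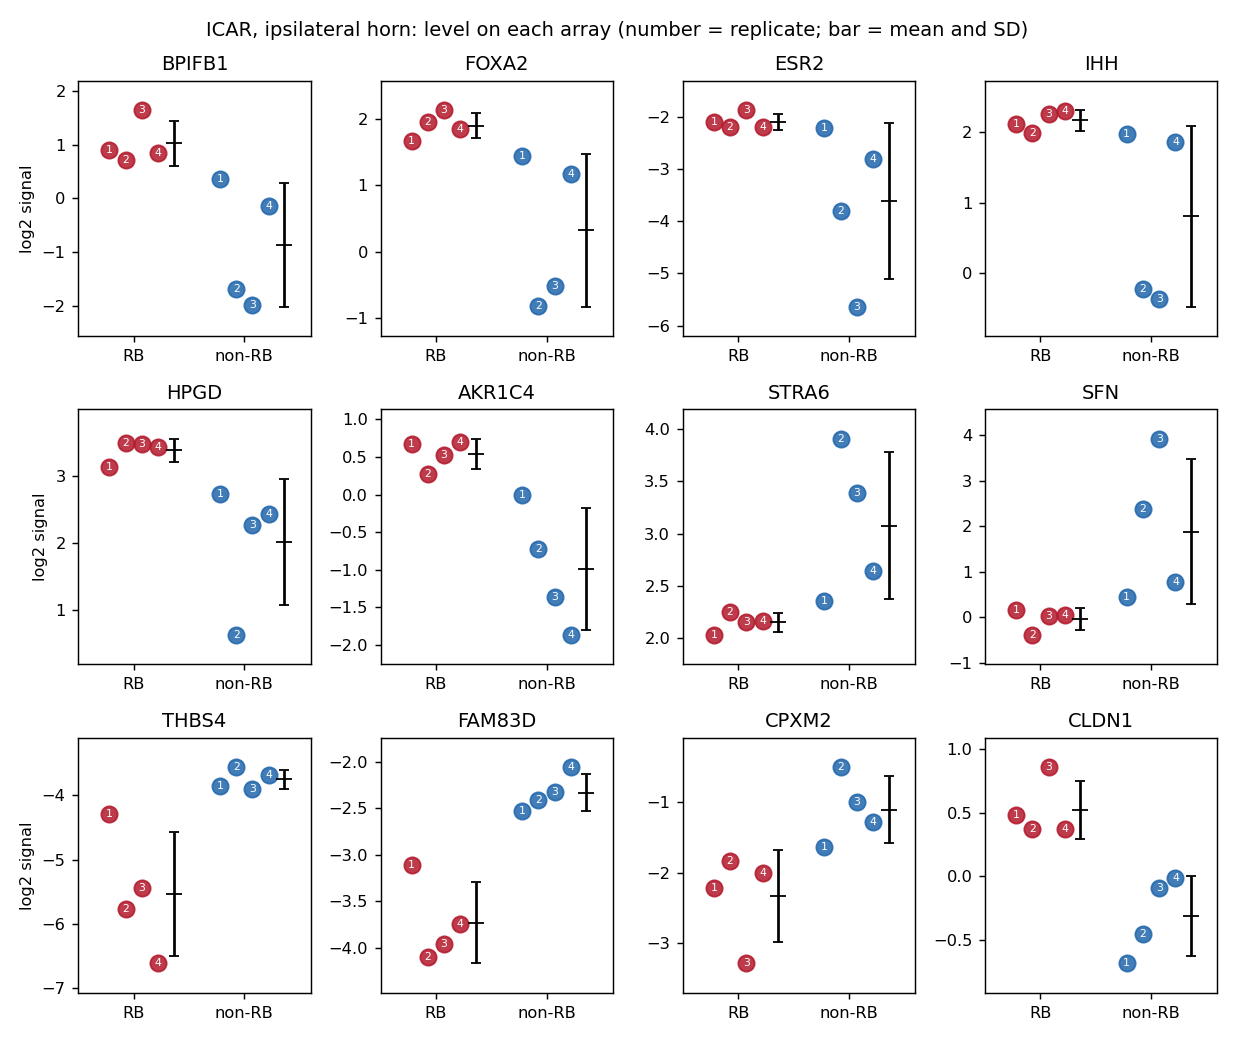
Level of 12 genes on each of the 8 arrays (vertical axes, log2 relative to the array's 75th percentile), with RB and non-RB cows side by side, each point an array with its replicate number and the bar the mean and SD of the group. In BPIFB1, FOXA2, ESR2 and IHH non-RB replicates 2 and 3 lie far below the rest, and in THBS4, FAM83D and CLDN1 the 4 non-RB arrays lie closer together.

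Among the genes lower in RB cows, SFN, which encodes the epithelial 14-3-3 sigma, had the largest size among the genes named by rule. It measured 0.15, -0.39, 0.01 and 0.04 in RB and 0.44, 2.39, 3.92 and 0.78 in non-RB cows. Non-RB replicates 2 and 3 stood highest and the groups did not overlap, with a difference of -1.93 (SE 0.67; exact permutation p = 0.0286, limma adjusted p = 0.863) that was -0.66 without the pair. STRA6, the membrane receptor that takes up retinol from its binding protein, measured 2.03, 2.25, 2.15 and 2.17 in RB and 2.36, 3.90, 3.38 and 2.65 in non-RB cows. The RB arrays fell within a narrow band below all non-RB arrays, and the difference of -0.92 (SE 0.33; exact permutation p = 0.0286, limma adjusted p = 0.863) was -0.35 without the pair. Both genes were lower in ICAR than in CAR of the contralateral horn, with differences of -2.19 for SFN and -0.78 for STRA6. Of the 19 retinoid genes tested, 9 were higher and 10 lower with a median of -0.01, and STRA6 alone had an unadjusted p under 0.05.

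Of the enzymes of prostaglandin and steroid metabolism, HPGD and AKR1C4 had higher means in RB cows without overlap. HPGD, which inactivates prostaglandins by oxidation, measured 3.13, 3.49, 3.47 and 3.44 in RB and 2.73, 0.62, 2.27 and 2.43 in non-RB cows. Each RB array exceeded each non-RB array, non-RB replicate 2 was the lowest, and the difference was 1.37 (SE 0.42; exact permutation p = 0.0286, limma adjusted p = 0.863). It remained at 0.80 without non-RB replicates 2 and 3. AKR1C4, an aldo-keto reductase that reduces steroids and is called AKR1C1 in the array's own annotation, measured 0.67, 0.27, 0.52 and 0.71 in RB and -0.000278, -0.72, -1.37 and -1.87 in non-RB cows. Here the lowest array was non-RB replicate 4, the groups did not overlap, and the difference of 1.53 (SE 0.38; exact permutation p = 0.0286, limma adjusted p = 0.863) was 1.48 without the pair.

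Enzymes that make prostaglandins overlapped between the groups where named. AKR1B1, the main prostaglandin F synthase of bovine endometrium, measured 5.32, 5.29, 5.36 and 5.23 in RB and 5.61, 4.12, 3.96 and 4.71 in non-RB cows. Non-RB replicate 1 exceeded all RB arrays, and the difference of 0.70 (exact permutation p = 0.143) was 0.14 without non-RB replicates 2 and 3. PTGS2, the inducible cyclooxygenase, measured 2.70, 1.34, 1.38 and 1.58 in RB and 2.84, 0.16, 0.92 and 2.49 in non-RB cows, so that the groups overlapped over most of their range. Its difference of 0.15 (SE 0.60; exact permutation p = 0.829) turned to -0.92 without the pair. The phospholipase PLA2G2A differed by -0.38 (exact permutation p = 0.114) and the prostaglandin E synthase PTGES by -0.44 (exact permutation p = 0.571). In the list of 14 genes of prostaglandin synthesis, breakdown and transport 8 were higher and 6 lower with a median of 0.17 (0.06 without the pair), and HPGD and AKR1C4 were the members with an unadjusted p under 0.05. Of 6 prostaglandin receptors 5 were lower with a median of -0.42, which was 0.0021 without the pair. Among them the thromboxane receptor TBXA2R differed by -0.66 without overlap (exact permutation p = 0.0286), and the prostaglandin E2 receptor PTGER2 was the exception at 1.01 (exact permutation p = 0.2).

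Of 19 receptors and enzymes of steroid and oxytocin action 10 were higher and 9 lower, with a median of 0.01 (-0.13 without the pair), and ESR2 and AKR1C4 were the members with an unadjusted p under 0.05. The progesterone receptor PGR was higher by 0.42 (SE 0.25; exact permutation p = 0.114) and estrogen receptor alpha ESR1 lower, with a difference of -0.35 (SE 0.33; exact permutation p = 0.429). The oxytocin receptor OXTR, which on the epithelium starts the release of prostaglandin F2α, measured -0.55, -1.28, -2.04 and -1.78 in RB and -0.21, -1.44, -3.93 and 0.28 in non-RB cows. Non-RB replicate 3 was the lowest and replicate 4 the highest of all, and the difference was -0.08 (SE 0.82; exact permutation p = 0.943). Without non-RB replicates 2 and 3 it was -1.44, and with the slide as a block it was 1.52, so that no direction can be given.

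A further group of genes had differences of about the same size with and without non-RB replicates 2 and 3. Thrombospondin 4 (THBS4), an adhesive glycoprotein of the matrix, measured -4.29, -5.77, -5.45 and -6.62 in RB and -3.85, -3.56, -3.89 and -3.69 in non-RB cows. The non-RB arrays lay within a range of less than 1 log2 unit above all RB arrays, which spread more widely. The difference was -1.78 (SE 0.43; exact permutation p = 0.0286, limma adjusted p = 0.863), and -1.76 without the pair.

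FAM83D, a protein of the mitotic spindle, measured -3.10, -4.10, -3.96 and -3.75 in RB and -2.53, -2.41, -2.32 and -2.06 in non-RB cows. The groups did not overlap, with RB replicate 1 nearest to the non-RB arrays. Its difference of -1.40 (SE 0.26; exact permutation p = 0.0286, limma adjusted p = 0.863) was -1.43 without the pair. The paper also measured FAM83D by quantitative PCR on the same RNA samples. It names FAM83D in this tissue as an exception to the match between PCR and arrays. CLDN1, a claudin of tight junctions, measured 0.48, 0.37, 0.85 and 0.37 in RB and -0.69, -0.45, -0.09 and -0.01 in non-RB cows. All RB arrays were above all non-RB arrays, the difference of 0.83 (SE 0.23; exact permutation p = 0.0286, limma adjusted p = 0.863) being 0.87 without the pair.

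CLDN4, another claudin, went the other way and measured -2.46, -3.30, -2.58 and -2.43 in RB and -1.81, -2.02, -2.17 and -1.96 in non-RB cows. The groups did not overlap, with a difference of -0.70 (exact permutation p = 0.0286) and of -0.81 without the pair. The lysosomal protease cathepsin D (CTSD) measured 1.59, 1.75, 1.03 and 1.79 in RB and 2.54, 2.50, 2.01 and 1.96 in non-RB cows. It was lower on every RB array, by a difference of -0.71 (exact permutation p = 0.0286) with and without the pair. Carbonic anhydrase 2 (CA2), which handles bicarbonate, overlapped in a single pair of arrays and differed by -1.17 (exact permutation p = 0.0571), or -1.47 without the pair.

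The carboxypeptidase-like CPXM2 measured -2.21, -1.83, -3.28 and -2.01 in RB and -1.64, -0.51, -1.01 and -1.29 in non-RB cows. It did not overlap, and its difference of -1.22 (SE 0.37; exact permutation p = 0.0286, limma adjusted p = 0.863) was -0.87 without the pair. GALK1, the first enzyme of galactose use, also did not overlap and differed by -1.08 (exact permutation p = 0.0286), or by -1.09 without the pair. In the other direction complement factor I (CFI), the protease that inactivates C3b and C4b, measured -0.29, 0.14, -0.18 and 0.67 in RB and -0.72, -1.04, -1.92 and -1.02 in non-RB cows. Its RB arrays lay above all non-RB arrays, and the difference of 1.26 (SE 0.32; exact permutation p = 0.0286, limma adjusted p = 0.863) was 0.95 without the pair.

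Complement component C5 measured -6.52, -4.46, -4.10 and -4.87 in RB and -6.19, -5.85, -7.45 and -7.18 in non-RB cows. RB replicate 1 lay below non-RB replicates 1 and 2, and the difference was 1.68 (SE 0.55; exact permutation p = 0.0857, limma adjusted p = 0.863), or 1.70 without the pair. C3, at the centre of the pathway, was above background on 2 RB and 3 non-RB arrays and differed by -0.79 (exact permutation p = 0.114). In the list of complement components, which does not hold the probes of C5 and CFI, 5 of 14 were higher with a median of -0.11, and none of the 14 had an unadjusted p under 0.05. Of 9 regulators 5 were higher with a median of 0.01, among them CD55, which speeds the decay of the convertases, with a difference of 0.68 (exact permutation p = 0.171). The C1 inhibitor SERPING1 differed by -0.51 (exact permutation p = 0.0857).

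The 20 genes that the study set out for this tissue were selected on these same arrays, so their directions are no independent evidence. The probes of 6 of them, C5, the first FOXA2 probe, KLHL24, CFI, FAM83D and GFRA1, could be named only through the probe list of the study and are in none of the gene lists. Of the 10 higher in RB cows, with differences of 1.26 to 1.89, 6 did not overlap between the groups. All 10 had an unadjusted p under 0.05, and 6 had one without non-RB replicates 2 and 3, where the median difference was 0.93 against 1.50. In the contralateral horn 9 of these 10 were higher in ICAR than in CAR, with a median of 1.55. Of the 10 lower in RB cows, with differences of -1.78 to -0.91, 5 did not overlap, and 3 had an unadjusted p under 0.05 without the pair, the median being -0.90 against -1.13. None of these 10 was higher in contralateral ICAR, and the median was -0.34. Besides those described, FMO2, a flavin monooxygenase, differed by 1.72 (0.94 without the pair), GATM, of creatine synthesis, by 1.46 (0.91), and the GDNF receptor GFRA1 by -1.24 (-0.94). The adhesive glycoprotein VTN differed by -0.98 (-0.77), the gelatinase MMP2 by -0.95 (-0.62) and the potassium channel KCNK17 by -0.91 (-0.85).

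These differences were set against the slides and scan sessions. Within slide 6, where RB replicate 4 met non-RB replicate 3, 20 of the 20 genes kept their direction. Within slide 8, where RB replicate 1 met non-RB replicate 2, 17 of 20 did, the exceptions being C5, POLR1H and CA2. With the scan session as a block 20 of the 20 had an unadjusted p under 0.05, and with the slide as a block 12 had. Only slides 6 and 8 held both groups, so the difference in the slide fit comes from these pairs alone. Their non-RB arrays, replicates 3 and 2, were the ones that scored on the CAR side. BPIFB1 differed by 2.84 within slide 6 and by 2.60 within slide 8, and by 0.81, 1.91 and 2.60 within sessions 2, 3 and 4. FOXA2 differed by 2.35 and 2.48 within the slides and by 0.61, 1.51 and 2.48 within the sessions. For THBS4 the differences were -2.73 and -0.73 within the slides and -1.76, -2.83 and -0.73 within the sessions. FAM83D differed by -1.43 and -0.69 within the slides and by -1.50, -1.56 and -0.69 within the sessions. AKR1C4 was higher by 2.08 and 1.39 within the slides but by 0.40 within session 2, and HPGD by 1.17 and 2.51 and by 0.75.

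With all 8 arrays most members of the matrix lists had lower means in RB cows. Of 12 collagen genes 11 were lower, with a median difference of -0.49, beside 53.2% of all probes below 0. COL3A1, a fibrillar collagen of the stroma, measured 5.34, 5.25, 5.32 and 5.46 in RB and 5.25, 5.99, 6.20 and 5.34 in non-RB cows. Only non-RB replicates 2 and 3 stood above the RB arrays, and the difference of -0.35 (exact permutation p = 0.257) was 0.05 without them. The mean level of the collagen list was -2.97 to -2.62 in RB cows, and -2.68, -1.59, -2.16 and -2.64 in non-RB replicates 1 to 4. Without replicates 2 and 3 the median was -0.12, and no collagen had an unadjusted p under 0.05 with all arrays. Of 15 thrombospondins and adhesive glycoproteins 12 were lower with a median of -0.18, or -0.03 without the pair. THBS4, VTN and the tenascin TNXB (-0.68, exact permutation p = 0.0857) were lower at an unadjusted p under 0.05, beside 1.45% of all probes. The tenascin TNC, with a contralateral ICAR minus CAR difference of -2.51, differed by -1.35 (exact permutation p = 0.0857) and by -0.27 without the pair. Of 18 matrix metalloproteinases and inhibitors 12 were lower with a median of -0.09 (-0.0064 without the pair), and of 13 stromal fibroblast markers 10 were lower with a median of -0.26, which was 0.05 without the pair.

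Tight junction proteins included claudins on either side. In the tight junction list 12 of 17 were higher with a median of 0.40, which was -0.05 without non-RB replicates 2 and 3. With an unadjusted p under 0.05 there were 4 members higher, CLDN1, CLDN7, CLDN10 and CLDN16, and 1 lower, CLDN4, beside 2.24% and 1.45% of all probes. CLDN7 differed by 0.89 (exact permutation p = 0.0571) and by 0.41 without the pair. The mean of the list was -1.96 to -1.76 in RB cows and -1.78, -2.57, -2.43 and -1.79 in non-RB replicates 1 to 4. Of 21 ion and water transport genes 13 were higher with a median of 0.21, or 0.04 without the pair, and at an unadjusted p under 0.05 there was 1 higher and 2 lower. ATP1B1, a subunit of the sodium pump, did not overlap and differed by 1.02 (exact permutation p = 0.0286), or by 0.65 without the pair. CYBRD1, which reduces iron for uptake, and RTN3, a reticulon of the endoplasmic reticulum, differed by 1.20 each without overlap, and by 0.44 and 0.38 without the pair. ASGR1, a receptor subunit that takes up glycoproteins lacking sialic acid, did not overlap either and differed by 1.01, or by 0.62 without the pair.

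With all 8 arrays the lists tied to the embryo had medians within 0.2 of 0. Of 28 interferon response genes 14 were higher and 14 lower, with a median of -0.01. ISG15, the conjugated ubiquitin-like protein that conceptus interferon induces, measured 0.69, 0.21, 0.85 and 0.95 in RB and 0.66, 0.29, 0.77 and 0.12 in non-RB cows, with a difference of 0.22 (SE 0.25; exact permutation p = 0.286). Its groups overlapped almost entirely. DHX58, a regulator of the RNA sensors, did not overlap and differed by -0.52 (exact permutation p = 0.0286). In the list of uterine milk and histotroph proteins 9 of 25 were higher and 16 lower with a median of -0.09 (-0.22 without the pair), and CTSD was the member with an unadjusted p under 0.05. SERPINA14, the uterine serpin that is a main product of the glands, measured -0.13, -2.22, -0.17 and -2.99 in RB and 0.40, -4.15, -1.62 and -2.35 in non-RB cows. It spread over more than 2 log2 units in each group, and the difference was 0.56 (SE 0.97; exact permutation p = 0.629). Genes of solute and nutrient uptake had 12 of 20 higher with a median of 0.16, or 0.01 without the pair.

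Growth and cell division genes were described by 3 lists. Of 15 genes of the insulin-like growth factor (IGF) system 12 were lower with a median of -0.28 (-0.17 without the pair), IGF1 itself by a difference of -0.98 (SE 0.61; exact permutation p = 0.257) and -0.09 without the pair. The adaptor GRB14, which inhibits the insulin receptor, was higher by 1.19 (exact permutation p = 0.0857). All 4 genes of the GDNF family tested were lower, with a median of -0.52 that was 0.09 without the pair. In the list of mitosis and DNA replication 8 of 21 were higher with a median of -0.18, which turned to 0.16 without the pair, and 2 were higher and 2 lower at an unadjusted p under 0.05, beside 2.24% and 1.45% of all probes. Cyclin B1 (CCNB1) was higher by 1.44 (exact permutation p = 0.114) and GMNN, the replication licensing inhibitor, by 0.51 (exact permutation p = 0.0286) without overlap. The mitotic kinase PLK1 did not overlap and differed by -0.52 (exact permutation p = 0.0286). The lists of galactose and glycogen metabolism (5 of 12 higher, median -0.11), xenobiotic and redox enzymes (20 of 31, 0.11, and 0.03 without the pair), creatine metabolism (7 of 10, 0.15, and -0.0065 without the pair) and antimicrobial proteins (8 of 14, 0.08) had medians within 0.2 of 0.

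Markers of other cell types were read in the same way. T and NK cell markers had 7 of 13 higher with a median of 0.03, macrophages and monocytes 4 of 11 with -0.14, which was 0.14 without the pair, and B and plasma cells 3 of 6 with 0.39, which was -0.19 without the pair. Endothelium markers had 5 of 11 higher with a median of -0.01 (0.10 without the pair), and smooth muscle 3 of 8 with -0.05, which was 0.53 without the pair. Only 2 red blood cell genes passed the filter and both were lower, with a median of -0.19. The epithelial cadherin CDH1, which should mark all epithelium, measured 1.12, -0.72, -3.39 and 1.25 in RB and 0.41, 3.34, 0.47 and 0.84 in non-RB cows. Its probe was low in RB replicate 3 and high in non-RB replicate 2. The mean of the luminal and general epithelium list, which includes CDH1, was also lowest of the RB arrays in replicate 3 (0.71). In non-RB replicate 2 that mean was 1.14, below the 1.63 and 1.22 of replicates 1 and 4, unlike CDH1.

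**Figure D4:**
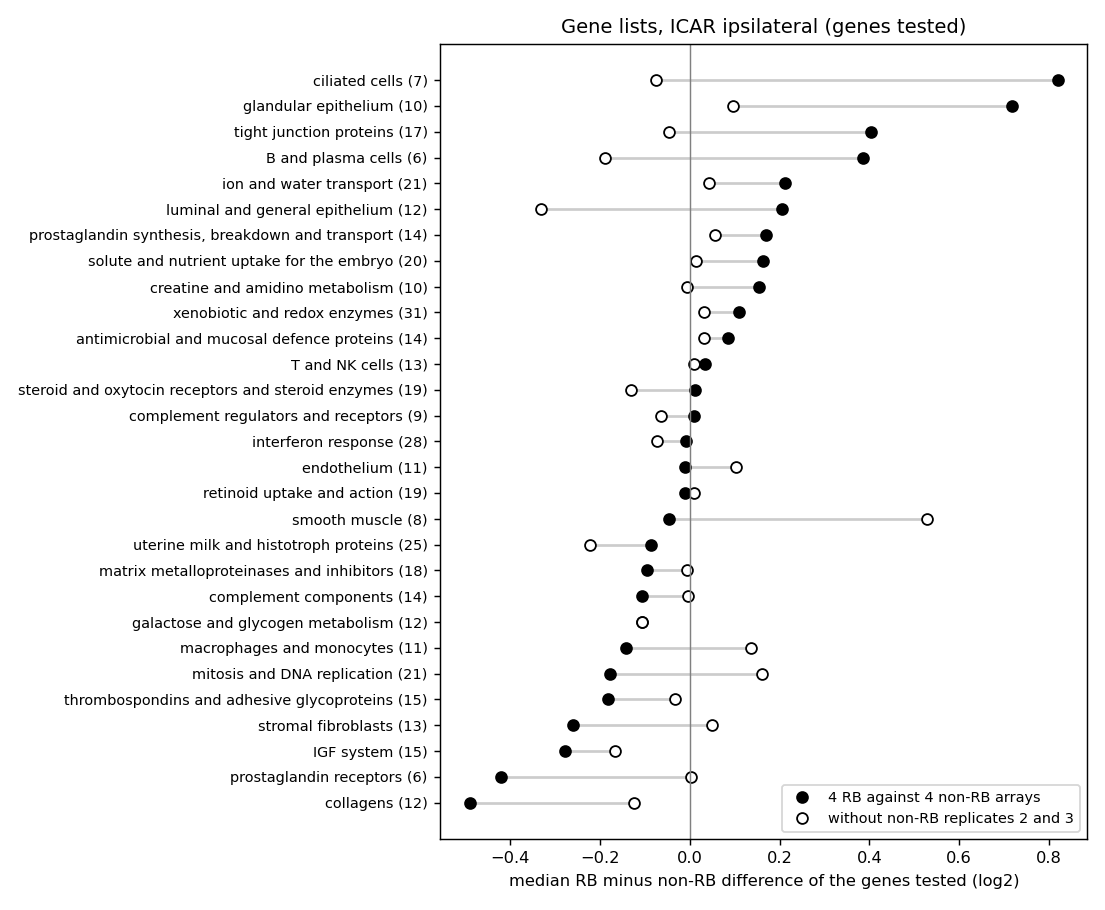
Median difference between RB and non-RB cows in ipsilateral ICAR (horizontal axis, log2), with all 8 arrays and without non-RB replicates 2 and 3. The 31 gene lists are shown except those of red blood cells and the GDNF family, in which few genes were tested. The medians of the glandular (0.72) and ciliated (0.82) lists with all arrays are 0.10 and -0.07 without the pair.

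Some of the largest differences were in dim genes, named here after their values were seen. They are given as a description, with no test, since at most 2 of 4 non-RB arrays cleared the background. GP2, a glycoprotein of mucosal surfaces, measured -6.42, -6.92, -4.40 and -0.81 in RB and -6.74, -8.26, -8.67 and -8.66 in non-RB cows. It cleared the background on 4 RB arrays and on 1 array of non-RB cows. RB replicate 4 stood far above the rest, RB replicate 2 lay below non-RB replicate 1, and the difference between the means was 3.44, set against a group mostly at background. Leaving out 1 array at a time, the GP2 difference ranged from 2.17 to 4.20. ANKS4B, of the microvillus scaffold, did not overlap, with a difference of 2.21 that was 0.93 without non-RB replicates 2 and 3. PIPOX, a peroxisomal oxidase, overlapped, with a difference of 2.22 and 2.86 without the pair. On arrays of non-RB cows ANKS4B and PIPOX each cleared the background in 2 of 4.

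The same genes were then followed in the other compartments, whose arrays were compared in the same way. In contralateral ICAR 90 probes were higher and 117 lower at an unadjusted p under 0.05, in ipsilateral CAR 185 and 262, and in contralateral CAR 159 and 70, with 0 after adjustment in each. Of the 20 genes of the study's list, which was chosen on ipsilateral ICAR, 14 had the same direction in contralateral ICAR, 17 in ipsilateral CAR and 19 in contralateral CAR. THBS4 differed by -1.62, -2.03 and -2.08 in these compartments (exact permutation p = 0.2, 0.0857 and 0.0857), and CPXM2 by -1.63, -2.22 and -1.54 (exact permutation p = 0.114, 0.0286 and 0.0571). KLHL24, a substrate adaptor of a ubiquitin ligase, differed by 1.38 in ipsilateral ICAR and by 1.28, 1.38 and 1.84 in the others (exact permutation p = 0.0286, 0.0571 and 0.0286). POLR1H, a subunit of RNA polymerase I, differed by 1.26 and by 1.63, 1.18 and 1.07 (exact permutation p = 0.0286, 0.0571 and 0.0571). Without contralateral RB replicate 3 the contralateral ICAR and CAR values were -1.88 and -2.41 for THBS4, -0.92 and -1.12 for CPXM2, 1.31 and 2.02 for KLHL24, and 1.46 and 1.10 for POLR1H. The compartments come from the same animals, so that they are not separate samples.

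Unlike KLHL24 and POLR1H, some genes had a difference of the other sign or almost none in contralateral ICAR with all arrays. FOXA2 differed by -0.67 in contralateral ICAR, BPIFB1 by -0.72, HPGD by -0.42 and AKR1C4 by -0.53, and STRA6, lower in ipsilateral ICAR, had -0.02. Contralateral RB replicate 3, whose arrays went against their labels, enters these values, and without it they were 0.0028 for FOXA2, -0.069 for BPIFB1, -0.097 for HPGD, 0.30 for AKR1C4 and -0.22 for STRA6. The difference in the RB effect between the horns was tested on the ipsilateral minus contralateral values of each cow, in 12868 probes. With limma 0 of them (0.0%) passed adjustment, with a smallest adjusted p of 0.615, and 1014 (7.88%) had an unadjusted p under 0.05. BPIFB1 was higher in the ipsilateral horn by 1.07, 0.86, 4.29 and 0.69 in RB cows, and by -0.49, -0.57, -2.24 and -0.23, thus lower, in non-RB cows. Every RB cow went one way and every non-RB cow the other. The difference was 2.61 (exact permutation p = 0.0286), and 1.76 without RB replicate 3. The largest values of either group, 4.29 and -2.24, were those of replicate 3. The ipsilateral array of non-RB replicate 3 was the one that scored furthest on the CAR side.

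For HPGD the difference between the horns was 1.79 (exact permutation p = 0.0286), or 1.44 without RB replicate 3. FOXA2 gave 2.24, or 1.50 without that replicate, and its second probe 2.57 and 1.82. AKR1C4 gave 2.06, or 1.24 without it. The serine protease PRSS16 (2.58, and 1.61 without RB replicate 3), coagulation factor F5 (2.52 and 2.07) and the ciliary gene DAW1 (2.42 and 1.72) were the others with large positive values. On the negative side were the receptor GPR37L1 (-2.08 and -1.58), the calcium channel CACNA1B (-2.07 and -1.91), the syndecan SDC2 (-1.87 and -1.45), the splicing factor CLASRP (-1.74 and -1.65) and the immediate early gene FOSB (-1.71 and -1.80). THBS4 had -0.17 between the horns. Probes of BPIFB1, FOXA2, AKR1C4, PRSS16 and DAW1 are among the 50 ICAR probes of the score. All values between the horns keep non-RB replicate 3, which scored -2.37 in ipsilateral and 1.18 in contralateral ICAR. Whether these differences follow the scores of the arrays was not tested.

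**Figure D5:**
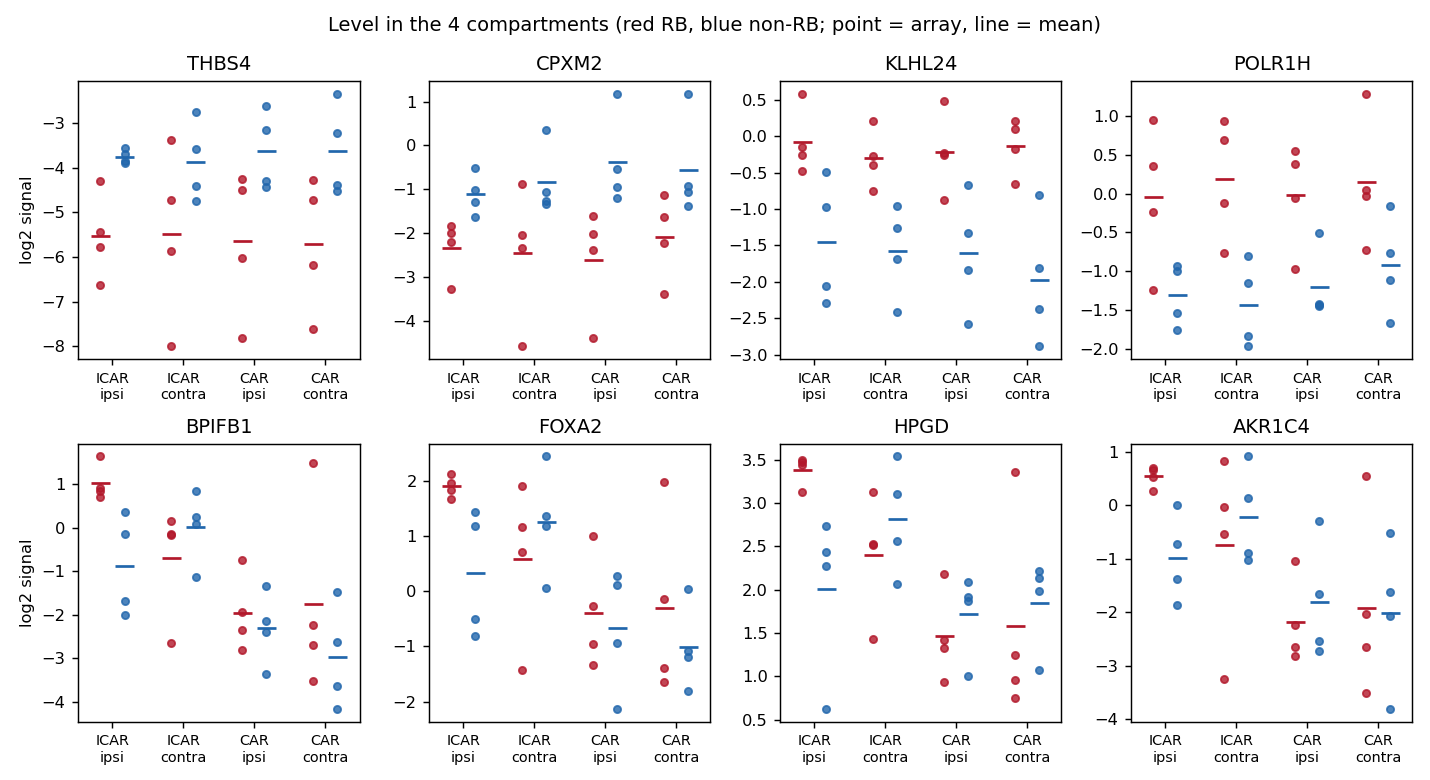
Level of 8 genes (vertical axes, log2 relative to the array's 75th percentile) in the 4 compartments, for RB and non-RB cows, with each point an array. THBS4 and CPXM2 are lower and KLHL24 and POLR1H higher in RB cows in each compartment on average. BPIFB1, FOXA2, HPGD and AKR1C4 are higher in RB cows in ipsilateral ICAR and, with all arrays, not in contralateral ICAR. Without contralateral RB replicate 3 the contralateral ICAR difference of AKR1C4 is 0.30.

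Within the ipsilateral horn the RB effect was compared between ICAR and CAR in 12923 probes, of which 0 (0.0%) passed adjustment with limma (smallest adjusted p of 0.839) and 657 (5.08%) had an unadjusted p under 0.05. AKR1C4 gave a difference of 1.91 (exact permutation p = 0.0571) and HPGD of 1.62 (exact permutation p = 0.0571), with differences in CAR of -0.38 and -0.25. SERPINA14 was higher in ICAR than in CAR by 0.58, 0.39, 1.22 and 0.48 in RB cows, against -0.88, -3.62, -0.35 and 0.16 in non-RB cows. The values did not overlap, and the difference was 1.84 (exact permutation p = 0.0286). The lowest value, -3.62, was that of non-RB replicate 2, whose ICAR array scored on the CAR side, and it enters this difference. Also positive were the collagen COL22A1 (1.68) and the IGF binding protein IGFBP1 (1.55).

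The neuropeptide NPY was lower in ICAR than in CAR on every cow, by -4.72, -1.29, -4.24 and -3.58 in RB and by -1.39, -0.58, -0.92 and -0.89 in non-RB cows. RB replicate 2 reached the range of the non-RB cows, and the difference was -2.51 (exact permutation p = 0.0571). Cardiac actin ACTC1 (-2.26), the glutamate transporter SLC1A3 (-2.24), TNC (-2.23) and myoglobin MB (-2.09) followed. The contrast between the areas in these genes was wider in RB than in non-RB cows on average. Probes of NPY, ACTC1, SLC1A3 and TNC are among the 50 CAR probes of the score. The negative ICAR scores of non-RB replicates 2 and 3 are therefore no separate observation on them. For NPY non-RB replicates 1 and 4, which scored on the ICAR side, had -1.39 and -0.89.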

How the data were processed

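Total RNA had been labelled with Cy3 and hybridized to single-colour Agilent arrays, 1 array per sample. The authors deposited the spot intensity files of Agilent Feature Extraction 9.5, with background-subtracted processed signals and detection flags, and a table of log2 values. The deposited log2 values equalled the log2 processed signal minus the 75th percentile of the array, plus a constant of 0.00539 to 0.0116 on the 8 arrays, and were used as they are. Precision is set by how few arrays there were. Whether the arrays came from 8 separate animals is taken from the study's text.

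Flagged spots were left out. Probes that cleared the background on 2 or more of 8 arrays (4 or more of 16 for within-cow tests) with at least 3 values per group were tested with limma 3.58.1 in R 4.3.3, 4 against 4 arrays, with Benjamini-Hochberg adjustment over all probes tested. For a named gene the exact permutation test, two-sided, ran over 70 assignments. The RB effect between horns and areas was tested on within-cow differences. On simulated data of this comparison with 12889 probes, 70 of 100 probes shifted by 2 log2 units and 94 of 100 shifted by 4 were called, with 10 false calls. Probes took gene names from accessions (2514), unique descriptions (2314) or file gene names (2144) matched to a RefSeq table, 400 kept the name in a description, and 7836 had none. A gene of a list was read on 1 probe, so that a list and a named gene may use different probes.

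Genes were named by rule: the 20 genes the study lists for this tissue, the 15 largest differences in each direction among non-overlapping probes above background on all 8 arrays with an unadjusted p under 0.05, up to 4 members per list with the smallest p, 12 genes of uterine function, and the 5 largest per direction in each within-cow test. Not every such gene is printed. The 31 lists, 10 of cell type markers and 21 of pathways, and the arrays compared were chosen with earlier results of these data known.

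Alternatives were other filters, scalings and background correction, the scanner signals, the methods' t-test, a block for slide, scan session or replicate number, a single fit over all 32 arrays, probes of the same sequence averaged, flagged spots kept, and each array left out. Added after seeing the data were the ICAR minus CAR score as a covariate and the removal of non-RB replicates 2 and 3.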

Additional observations from a re-analysis of the deposited data

Results flagged for a closer look

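In groups of 4 arrays, a single array stood apart from the other 3, by a gap of more than 0.829 of the range of the group, in 11 of 234 groups examined, and chance alone gives about 1 in 20. Among genes in RB cows these were HPGD in replicate 1, which at 3.13 was lower than the others, GFRA1 in replicate 4 (-3.77, higher), GPRC5A in replicate 3 (-7.62, lower) and GMNN in replicate 1 (0.81, higher). In non-RB cows replicate 2 stood above the others in NPB (-5.56) and in CDH1 (3.34). Among the mean levels of gene lists, an RB array stood apart in macrophages and monocytes (-2.79), in complement components (-3.54) and in tight junction proteins (-1.96). A non-RB array stood apart in matrix metalloproteinases and inhibitors (-2.47) and in xenobiotic and redox enzymes (1.15). GPRC5A, an orphan receptor, differed between the groups by -0.73 and NPB, a neuropeptide, by -0.72, both without overlap.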

How the results depend on the processing

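No probe passed adjustment under any alternative run in the comparison of RB with non-RB cows or in the tests between horns and areas. At an unadjusted p under 0.05 the 476 probes (289 higher, 187 lower) became 1571 (728 and 843) with the slide as a block. That fit takes the difference only from slides 6 and 8, thus from RB replicates 4 and 1 against non-RB replicates 3 and 2. Without non-RB replicates 2 and 3 there were 291 (174 and 117), and with the ICAR minus CAR score as a covariate 181 were higher and 140 lower. Leaving out 1 array at a time gave 223 (without RB replicate 3) to 1368 (without non-RB replicate 1) probes, 118 (without RB replicate 2) to 726 higher and 61 to 642 lower. RB replicate 4, without which 334 were lower, and non-RB replicate 3, without which 155 were higher and 117 lower, also moved a count by over 1.5 times. Between the horns the 1014 probes (522 and 492) became 139 (66 and 73) with 16 arrays as independent, and 453 to 1462 (255 to 595 higher, 198 to 867 lower) without 1 cow. Between the areas the 657 probes (273 and 384) became 107 (52 and 55) with independent arrays, and 334 to 1170 (122 to 522 higher, 183 to 648 lower) without 1 cow. The cause of these shifts was not tested.

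With the replicate number as a block there were 642 probes (405 and 237), 707 (368 and 339) between the horns and 1436 (624 and 812) between the areas. Same-numbered RB and non-RB arrays correlated at 0.32, 0.0999, 0.21 and 0.07 in their deviations. RB replicates 1, 2 and 3 each correlated best with the non-RB array of the same number, and RB replicate 4 with non-RB replicate 2 (0.26). Whether same-numbered arrays of the groups shared more than a number was not tested.

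Some genes changed direction. Within slide 8 the difference was -0.67 for C5, -0.24 for POLR1H, 0.50 for CA2 and -1.66 for PIPOX. With the score as a covariate, and without non-RB replicates 2 and 3, it was 0.022 and 0.049 for COL3A1, -0.33 and -0.40 for SERPINA14, -0.85 and -0.92 for PTGS2, and 0.36 and 0.30 for PTGES. Leaving out 1 array gave -0.18 to 1.33 for SERPINA14, -0.33 to 0.56 for PTGS2 (-0.17, -0.33 and -0.08 without RB replicate 1 and non-RB replicates 2 and 3), -0.88 to 0.13 for PTGES and -0.95 to 0.45 for OXTR (0.29, 0.12, 0.04 and 0.45 without non-RB replicate 1, RB replicates 3 and 4 and non-RB replicate 4). OXTR was 1.52 with the slide as a block. Of 984 values for 66 genes over the 15 other alternatives, 822 kept direction and side of an unadjusted p of 0.05, 134 lost it and 19 gained it. Of 465 list medians 442 moved by less than the spread between arrays.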
